A study of Mus musculus with 16 samples.

Results

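In mIMCD3 cells given doxycycline (DOX), *Fasn*, *Scd2* and *Elovl6* fell at both 3 and 6 days, while 7 other genes of fatty acid synthesis and desaturation did not pass the test at either time. The genes described here are 10, chosen by symbol: *Acly*, *Acaca*, *Acacb*, *Fasn*, *Scd1*, *Scd2*, *Elovl6*, *Fads1*, *Fads2* and *Acsl3*. All 10 were found among the 54393 genes of the count table and in the table of TPM, a level per transcript length, and all 10 were among the 13234 genes abundant enough to be tested.

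The mIMCD3 line derives from the terminal inner medullary collecting duct of a mouse carrying an SV40 transgene, and the cells are labelled wild type. All cells grew for 10 days on permeable filters in medium with 5% FBS before treatment. Polyadenylated RNA was sequenced from 4 groups of 4 libraries: cells given DMSO, the vehicle, for 3 days, 2 µg/mL DOX for 3 days, DMSO for 6 days, and 2 µg/mL DOX for 6 days, with the medium renewed daily. The sources used here do not say whether replicates were separate cultures, so p-values measure the spread between these libraries, which may be technical.

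Cells make fatty acids in the cytosol from acetyl-CoA. Acetyl-CoA is released from citrate by ATP citrate lyase and carboxylated to malonyl-CoA, and fatty acid synthase joins these units into palmitate. The palmitate is then elongated, desaturated and activated with CoA before it enters membrane and storage lipids. Much of the pathway is a textbook target of SREBP transcription factors, which are held back by INSIG proteins when sterols are plentiful. In the kidney, the tubule is better known for oxidizing fatty acids than for making them.

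Positions are those of the GENCODE annotation of GRCm38. *Acly* lies on chromosome 11 from 100476353 to 100528000, *Acaca* on chromosome 11 from 84129672 to 84401651, and *Fasn* on chromosome 11 from 120805846 to 120824547. *Fads1* (chromosome 19 from 10182888 to 10196877) and *Fads2* (chromosome 19 from 10062765 to 10101746) lie close together on opposite strands, as do *Scd1* (chromosome 19 from 44394455 to 44407879) and *Scd2* (chromosome 19 from 44293674 to 44306864). *Elovl6* lies on chromosome 3 from 129532355 to 129638495, *Acacb* on chromosome 5 from 114146535 to 114250761, and *Acsl3* on chromosome 1 from 78657825 to 78707743. All 10 are protein-coding genes, and values are per gene, not per exon or isoform. Part of the reads of 5 of them could be split with other genes. Of all windows of 75 bases, the read length, in *Acaca* transcripts, 26.8% also occur in other genes, mainly in *Gm5182*, a processed pseudogene on chromosome 12 that was given 75.9 to 188 counts in a library, so the values of *Acaca* are uncertain. The share was 3.15% for *Scd1*, 1.78% for *Scd2*, 2.05% for *Elovl6* and 3.00% for *Acsl3*, and 0% for the other members. *Acaca*, *Acacb* and *Elovl6* overlap genes on the opposite strand. On the same strand, *Acsl3* overlaps *Utp14b*, *Acaca* overlaps *Gm37391* and *Elovl6* overlaps *Gm43072*. *Acly*, *Scd2* and *Fads1* each overlap a microRNA gene on the same strand. The study's methods name a directional library kit, but whether reads were counted by strand is not given in the sources used here.

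The 250 bases before the transcription start were taken from RefSeq (GRCm38.p6), which matched 7 of the 10 members. They were *Acsl3*, *Elovl6*, *Acacb*, *Acaca*, *Acly*, *Fasn* and *Fads2*. The promoters of *Fasn* and *Elovl6*, which fell together under DOX, are printed with those of *Acly* and *Fads2*, which were not called. These genes were picked by their calls in these same data, and no link between motifs and calls was tested. The sequences run 5′ to 3′ on the strand of the gene and end at the base before the start. *Fasn* is chr11:120824548-120824797 on the minus strand, *Elovl6* chr3:129532136-129532385 on the plus strand, *Acly* chr11:100528001-100528250 on the minus strand and *Fads2* chr19:10101504-10101753 on the minus strand. Capitals mark the NF-Y box CCAAT, the GC box GGGCGG, the E-box CACGTG and the sterol regulatory element core TCACNCCAC, each searched on both strands.
Fasn: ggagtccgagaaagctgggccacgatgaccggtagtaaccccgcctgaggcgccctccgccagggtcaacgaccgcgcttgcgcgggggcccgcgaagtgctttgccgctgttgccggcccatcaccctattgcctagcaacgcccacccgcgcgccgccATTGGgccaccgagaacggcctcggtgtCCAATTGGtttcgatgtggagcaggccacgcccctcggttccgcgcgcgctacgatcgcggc
Elovl6: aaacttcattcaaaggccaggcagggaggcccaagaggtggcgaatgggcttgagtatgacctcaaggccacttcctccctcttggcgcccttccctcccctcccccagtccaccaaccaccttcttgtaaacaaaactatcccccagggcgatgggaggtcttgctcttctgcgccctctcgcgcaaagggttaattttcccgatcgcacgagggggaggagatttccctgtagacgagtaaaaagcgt
Acly: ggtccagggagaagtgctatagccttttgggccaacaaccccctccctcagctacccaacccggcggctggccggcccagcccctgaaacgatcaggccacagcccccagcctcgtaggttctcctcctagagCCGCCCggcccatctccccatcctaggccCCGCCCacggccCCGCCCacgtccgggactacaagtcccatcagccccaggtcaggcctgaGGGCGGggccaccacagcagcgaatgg
Fads2: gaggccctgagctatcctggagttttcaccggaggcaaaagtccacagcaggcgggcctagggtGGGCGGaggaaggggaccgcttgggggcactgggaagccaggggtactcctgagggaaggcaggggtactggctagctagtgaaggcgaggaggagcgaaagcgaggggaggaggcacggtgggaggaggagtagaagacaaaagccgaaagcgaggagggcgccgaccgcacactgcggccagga

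*Fasn* held 3 NF-Y boxes, of which the 2 nearest to the start overlap, since CCAATTGG reads as the box on either strand. *Elovl6* held none of the 4 motifs. *Acly* held 4 GC boxes and *Fads2* 1 GC box. Among the promoters not printed, *Acsl3* held 5 GC boxes and 1 NF-Y box, *Acacb* 1 NF-Y box, and *Acaca* none of the 4. The windows of this last pair lie inside the genes as GENCODE draws them, since their RefSeq starts are 18983 bases (*Acacb*) and 65766 bases (*Acaca*) after the GENCODE gene starts. For *Elovl6* and *Fads2* the RefSeq start is 31 and 243 bases after the GENCODE start. That many bases at the end of their windows therefore also lie inside the genes, nearly the whole window for *Fads2*. For the other 3 the RefSeq start is the same base as the GENCODE start. The sterol regulatory element core and the E-box were in none of the 7. Among 32851 promoter windows of the same length, 33.9% held the NF-Y box, 32.7% the GC box, 6.02% the E-box and 1.05% the sterol regulatory element core.

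Libraries held 16933343 to 23960860 estimated counts, and the limit that a count of 0 allows, 3 counts, was 0.125 to 0.177 CPM (counts relative to the library total) before the TMM scaling between libraries that all other CPM carry, which covers counting error only. The members were far above this floor, from 69 to 119 counts in a library for *Acacb* to between 5688 and 14836 for *Scd2*. All 6 epithelial markers were tested, of which *Cdh1* and *Krt8* fell under DOX at 3 days and *Krt8*, *Krt18* and *Cldn4* at 6 days, with a summed TPM of 2125 to 2359 in DMSO and 1570 to 1820 in DOX libraries at 3 days, and 2327 to 2586 against 1590 to 1799 at 6 days. The defining markers of collecting duct principal cells were nearly absent, and none of *Aqp2*, *Aqp3*, *Avpr2*, *Scnn1b* and *Scnn1g* reached the abundance for testing. None of the 6 fibroblast and 5 adipocyte markers did so either, with a summed TPM of at most 1.11 and 1.57 in any library. Of 4 macrophage markers, *Cd68* and *Csf1r* were tested and fell under DOX at both times, and the list's summed TPM was 24.8 to 32.5 in DMSO against 10.7 to 16.5 in DOX at 3 days and 28.4 to 31.5 against 15.2 to 16.6 at 6 days. The defining leukocyte gene *Ptprc* had 3 to 22 counts in a library, and *Adgre1* was at 0 in 12 of 16 libraries. Of 4 endothelial markers, *Pecam1* and *Kdr* were tested and 0 were called, and the list's summed TPM stayed between 0.462 and 1.26.

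The members differed widely in level without DOX. Over the 8 DMSO libraries *Scd2* was the most abundant at 134 ± 13.6 TPM (mean ± SD, n = 8), rank 917 of 53354 genes. *Fads2* at 55.6 ± 6.84 TPM, *Acly* at 55.5 ± 4.72 TPM, *Fads1* at 52.8 ± 7.60 TPM and *Fasn* at 41.9 ± 6.22 TPM followed, and the ranges of these 4 over libraries overlapped from each to the next. *Acaca* had 12.3 ± 1.72 TPM, *Acsl3* 10.1 ± 1.27 TPM, *Scd1* 7.56 ± 1.06 TPM and *Elovl6* 6.09 ± 1.16 TPM, again with overlap between neighbours in the order. *Acacb* was lowest at 0.727 ± 0.249 TPM, rank 14002. In every DMSO library *Acaca* exceeded *Acacb* and *Scd2* exceeded *Scd1*.

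**Figure D1:**
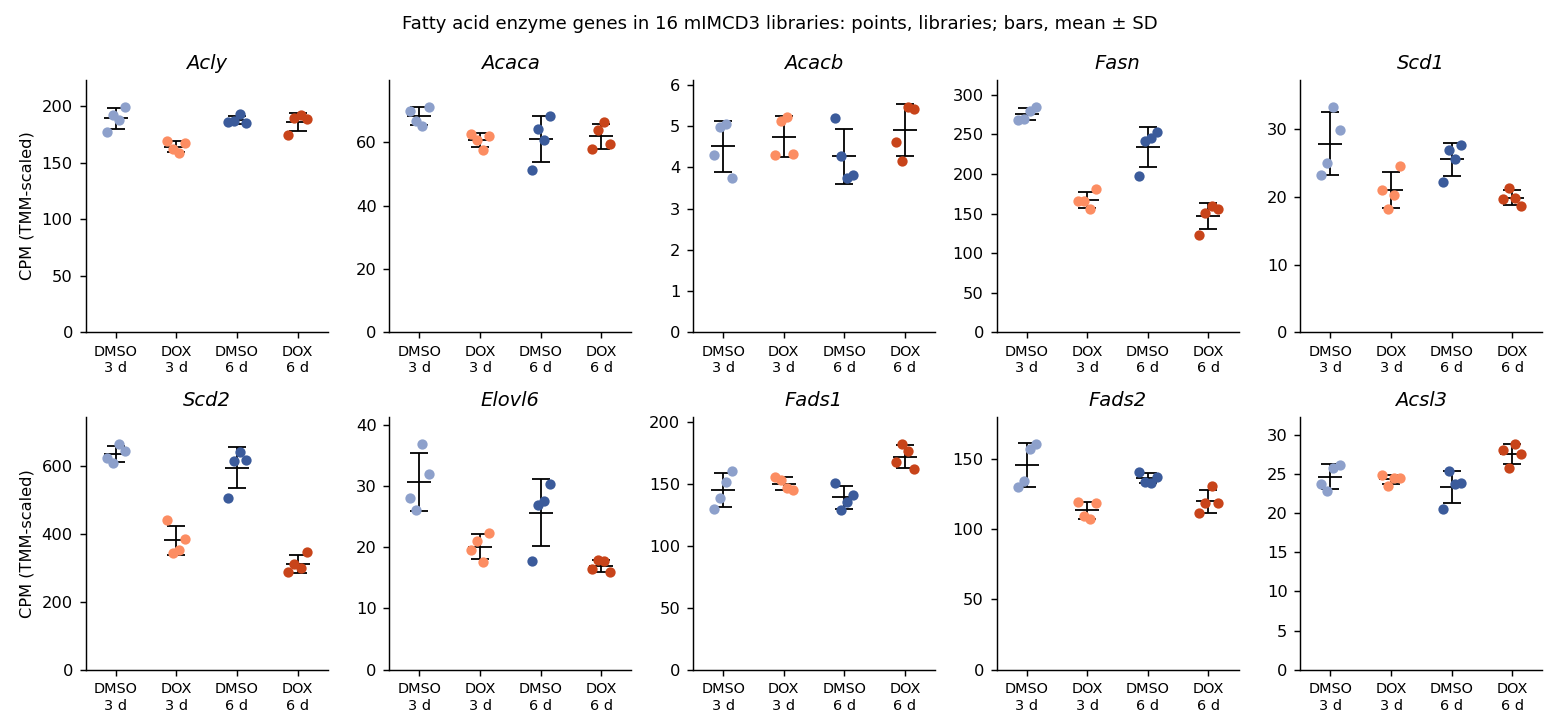
CPM of each of the 10 genes (vertical axes, TMM-scaled, starting at 0) in each library of the 4 groups, as points, with the mean and SD as bars (n = 4). The DOX libraries of *Fasn* and *Scd2* lie below all DMSO libraries at both times, and *Fads1* and *Acsl3* lie above DMSO at 6 days only.

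The question put to each gene was whether DOX changed it by more than 1.2-fold at 3 and at 6 days. edgeR's quasi-likelihood test with this threshold was fitted to all 16 libraries, p was adjusted by Benjamini-Hochberg over the 13234 genes, and a gene with an adjusted p under 0.05 is referred to as called. At 3 days 3 of 10 members were called, all 3 lower, beside 12.5% of all tested genes called, 7.22% called lower and 5.30% called higher. At 6 days the called members were again 3 of 10, all lower, beside 21.6% of all genes called, 11.6% lower and 10.0% higher. No member was called higher at either time, and an unadjusted p under 0.05 was reached by 5 members at 3 days and by 3 at 6 days, as by 21.7% and 28.5% of all genes. DESeq2 called 2 lower and 0 higher at each time. Over all 13234 genes it called 606 lower and 413 higher at 3 days, and 1096 lower and 866 higher at 6 days. The median log2 fold change of the 10 was -0.28 at 3 days and -0.10 at 6 days, against 0.00 for all tested genes at both. The 4 DOX libraries lay entirely below the 4 DMSO libraries for 6 members at 3 days, where 19.8% of all genes did so, and for 4 members at 6 days, where 20.9% did. They lay entirely above for 0 members at 3 days (18.8% of all genes) and for 2 at 6 days (22.1%). In bulk RNA, fewer cells of a type and less RNA per cell cannot be told apart. The summed TPM of the epithelial and of the macrophage markers given above were both lower in DOX. Of the macrophage list, *Ptprc* had 3 to 22 counts in a library and *Adgre1* was at 0 in 12 of 16 libraries. The part of either fall in the changes of the members was not tested.

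**Figure D2:**
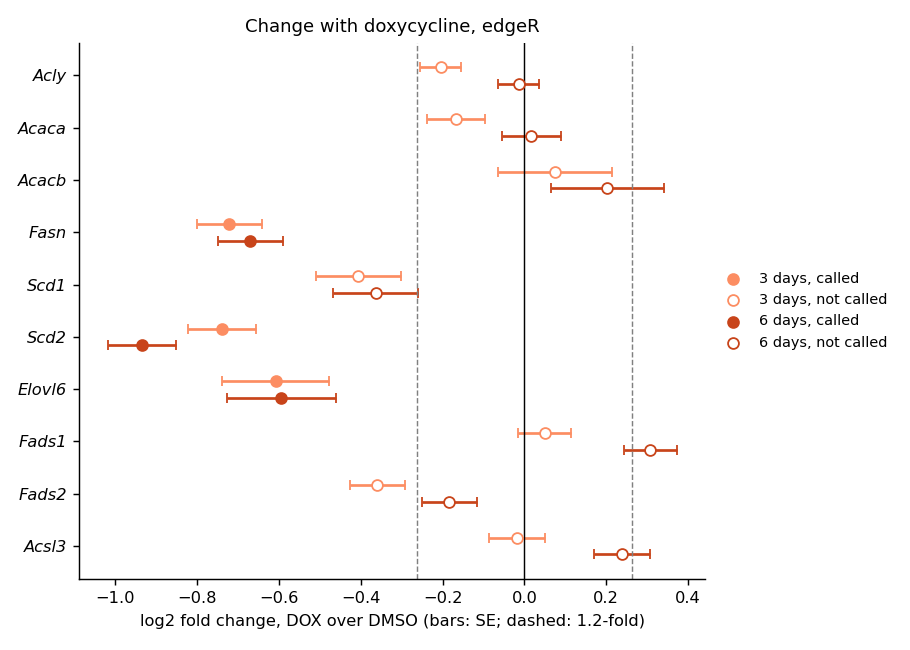
Log2 fold change for DOX over DMSO (horizontal axis) of each member (vertical axis) at 3 and 6 days, with SE bars. Filled points are called changes and dashed lines mark 1.2-fold. *Fasn*, *Scd2* and *Elovl6* are the filled points, from -0.94 to -0.59, and *Fads1*, *Acsl3*, *Acacb* and, at 0.02, *Acaca* lie to the right of 0 at 6 days.

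Fatty acid synthase (*Fasn*), the multifunctional enzyme that builds palmitate, fell at both times. At 3 days the DMSO libraries had 268, 270.0, 280.2 and 285 CPM and the DOX libraries 165, 166, 156 and 181 CPM. At 6 days the values were 198, 242, 245 and 253 CPM in DMSO and 123, 151, 159 and 156 CPM in DOX. The groups did not overlap at either time, and the lowest library of each 6-day group was replicate 1. Its log2 fold change at 3 days was -0.72 (SE 0.079, adjusted p = 3.15e-05), followed by -0.67 (SE 0.079, adjusted p = 4.90e-05) after 6 days. As a percent change from DMSO these are -39.4% and -37.2%.

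Stearoyl-CoA desaturases put the first double bond into saturated fatty acids, and mice have several forms of the enzyme. *Scd2* had 624, 606, 663 and 644 CPM in DMSO and 439, 344, 352 and 385 CPM in DOX at 3 days. At 6 days it had 505, 613, 641 and 615 CPM in DMSO and 286, 311, 299 and 346 CPM in DOX. Every DOX library was below every DMSO library of either time. On the log2 scale *Scd2* fell by 0.74 (SE 0.083, adjusted p = 3.66e-05) in the first comparison and by 0.94 (SE 0.083, adjusted p = 2.47e-07) in the second. At 3 days this differed from the change of *Fasn* by less than either SE. *Fasn* and *Scd2* were called at both times under every alternative run and with any 1 of the 16 libraries left out.

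*Scd1*, the form best known from liver and fat, was far less abundant than *Scd2* and did not pass the test. Its libraries had 23.2, 24.97, 33.3 and 29.9 CPM in DMSO and 21.03, 18.2, 20.3 and 24.6 CPM in DOX at 3 days. At 6 days they had 22.1, 26.9, 25.6 and 27.6 CPM in DMSO and 19.7, 21.3, 19.7 and 18.7 CPM in DOX. The groups overlapped at 3 days but not at 6 days on CPM, and at neither time on TPM. On log2(TPM + 1) the median change of all tested genes under DOX was -0.15 at 3 days and -0.05 at 6 days. This shift enters every comparison of TPM levels between treatments, here and for the other genes. At -0.41 (SE 0.104, adjusted p = 0.155) and -0.36 (SE 0.104, adjusted p = 0.206) on the log2 scale, *Scd1* was called at neither time. The approximate 95% interval of the change ran from -0.61 to -0.20 at 3 days and from -0.57 to -0.16 at 6 days. With an offset for effective length, derived here as the deposited count over the deposited TPM, *Scd1* was called at both times, at -0.54 (adjusted p = 0.0168) and -0.53 (adjusted p = 0.0137).

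*Elovl6* encodes the elongase that extends palmitate to stearate. Its libraries had 28.0, 26.1, 36.8 and 31.9 CPM in DMSO and 19.6, 21.02, 17.5 and 22.3 CPM in DOX at 3 days. At 6 days they had 17.7, 26.9, 27.6 and 30.2 CPM in DMSO and 16.4, 17.9, 17.7 and 15.9 CPM in DOX. The groups were apart at 3 days, while at 6 days replicate 1 of DMSO lay among the DOX libraries on CPM. On TPM the groups of 6 days did not overlap, with 4.13 in the lowest DMSO and 3.95 in the highest DOX library. *Elovl6* fell on the log2 scale by 0.61 (SE 0.130, adjusted p = 0.0193) after 3 days and by 0.59 (SE 0.132, adjusted p = 0.0157) after 6 days. The call was the least secure of the 3. DESeq2 gave an adjusted p of 0.117 at 3 days and 0.0841 at 6 days, and limma on log2(TPM + 1) gave 0.0906 and 0.249. The call was lost at 3 days without DMSO replicate 3 (adjusted p = 0.0744), DMSO replicate 4 (0.0507) or DOX replicate 3 (0.0656), and at 6 days without DMSO replicate 4 (0.0626), and without DMSO replicate 1 of 6 days it strengthened to -0.73 (adjusted p = 0.000188).

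*Fads1* and *Fads2* encode the desaturases that make long polyunsaturated fatty acids from dietary precursors, with *Fads2* acting at the first step and *Fads1* at a later one. *Fads2* had 129.9, 134, 157 and 160.3 CPM in DMSO and 119, 109, 107 and 118 CPM in DOX at 3 days, and 141, 134, 133 and 137 CPM against 111, 119, 130.5 and 118 CPM at 6 days. The DOX libraries were the lower ones at both times, with no overlap. Log2 fold changes of -0.36 (SE 0.067, adjusted p = 0.143) and then -0.18 (SE 0.067, adjusted p = 1.00) were not called, with approximate 95% intervals from -0.49 to -0.23 and from -0.32 to -0.05. Without DMSO replicate 1 of 3 days it was called at that time (adjusted p = 0.0462). *Fads1* had 130.01, 139, 152 and 161 CPM in DMSO and 156, 153, 147 and 145 CPM in DOX at 3 days, and 151, 129, 135 and 142 CPM against 168, 182, 177 and 162 CPM at 6 days. The groups overlapped at 3 days, where the mean was higher in DOX on CPM but lower on TPM (48.3 against 53.8), and at 6 days every DOX library was above every DMSO library. The log2 fold change was 0.05 (SE 0.064, adjusted p = 1.00) and then 0.31 (SE 0.064, adjusted p = 0.293), which was not called at either time, with an approximate 95% interval at 6 days from 0.18 to 0.43.

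Within each library the ratio of the pair separated the treatments. *Fads1* over *Fads2*, as a ratio of TPM, was 0.908, 0.971, 0.897 and 0.994 in DMSO and 1.25, 1.31, 1.27 and 1.196 in DOX at 3 days. At 6 days it was 0.991, 0.893, 0.953 and 0.967 in DMSO and 1.38, 1.46, 1.26 and 1.25 in DOX. On TPM *Fads2* exceeded *Fads1* in all 8 DMSO libraries and *Fads1* exceeded *Fads2* in all 8 DOX libraries. The means were 0.943 ± 0.0473 and 1.26 ± 0.0481 at 3 days and 0.951 ± 0.0419 and 1.34 ± 0.0995 at 6 days (SD, n = 4). On CPM, which leaves out transcript length, the means were 1.00 and 1.33 at 3 days and 1.02 and 1.44 at 6 days, still without overlap, but the ratio was over 1 in 6 of 8 DMSO libraries too, so the change of order between the genes holds on TPM only. *Scd1* over *Scd2* overlapped between treatments on TPM, with means of 0.0558 ± 0.00407 and 0.0646 ± 0.00755 at 3 days and 0.0577 ± 0.00969 and 0.0759 ± 0.0117 at 6 days. On CPM this ratio did not overlap at 6 days, with means of 0.0431 in DMSO and 0.0643 in DOX. The ratio of *Acaca* to *Acacb* overlapped as well, from 10.8 to 27.3 in DMSO and from 5.45 to 17.5 in DOX over both times. These ratios are descriptions and were not tested.

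**Figure D3:**
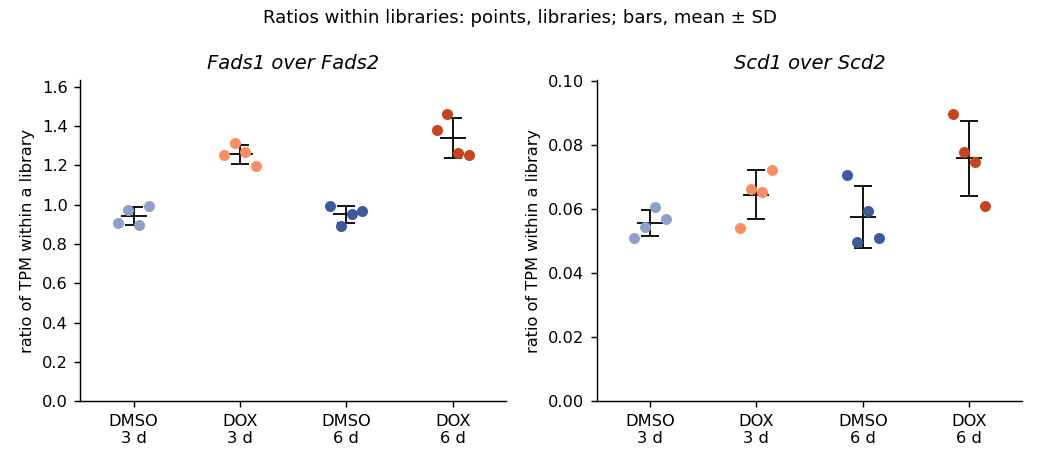
TPM ratios within each library (vertical axes, starting at 0) for *Fads1* over *Fads2* and *Scd1* over *Scd2* in the 4 groups, with points for libraries and bars for the mean and SD (n = 4). The *Fads1* over *Fads2* ratio lies under 1 in every DMSO library and above 1 in every DOX library, while the *Scd1* over *Scd2* values overlap.

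The enzymes before fatty acid synthase showed smaller differences. *Acly*, which frees cytosolic acetyl-CoA, had 177, 192, 188 and 199.6 CPM in DMSO and 169, 162, 159 and 168 CPM in DOX at 3 days, and 187, 187, 193 and 185 CPM against 174, 189, 192 and 189 CPM at 6 days. The groups were apart at 3 days and overlapped at 6 days. Its log2 fold change was -0.20 (SE 0.050, adjusted p = 1.00) and later -0.01 (SE 0.050, adjusted p = 1.00), with an approximate 95% interval at 6 days from -0.11 to 0.08. *Acaca*, the cytosolic acetyl-CoA carboxylase, had 65.1 to 71.1 CPM in DMSO and 57.6 to 62.6 CPM in DOX at 3 days, and 51.2 to 68.2 CPM against 57.7 to 66.3 CPM at 6 days. As with *Acly*, the DOX libraries were the lower ones at 3 days and lay among the DMSO libraries at 6 days. On TPM both genes overlapped at 3 days as well. The log2 fold change was -0.17 (SE 0.071, adjusted p = 1.00) and 0.02 (SE 0.071, adjusted p = 1.00). *Acacb*, the carboxylase at the mitochondrial surface whose malonyl-CoA restrains fatty acid oxidation, had 3.73 to 5.04 CPM in DMSO and 4.31 to 5.21 CPM in DOX at 3 days, and 3.74 to 5.21 CPM against 4.15 to 5.47 CPM at 6 days. The groups overlapped at both times, and its log2 fold changes of 0.07 (SE 0.139) and 0.20 (SE 0.138) were not called (adjusted p = 1.00 and 0.812).

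*Acsl3* encodes an acyl-CoA synthetase that activates fatty acids at the endoplasmic reticulum and lipid droplets. It had 23.7, 22.8, 25.8 and 26.1 CPM in DMSO and 24.8, 23.5, 24.4 and 24.5 CPM in DOX at 3 days, and 20.5, 25.3, 23.7 and 23.8 CPM against 28.0, 25.8, 28.8 and 27.6 CPM at 6 days. Like *Fads1*, it overlapped at 3 days and was higher in every DOX library at 6 days on CPM. On TPM both overlapped at 6 days, with up to 11.4 in DMSO and from 10.3 in DOX for *Acsl3*, and up to 56.2 in DMSO and from 55.1 in DOX for *Fads1*. The log2 fold change was -0.02 (SE 0.069, adjusted p = 1.00) and 0.24 (SE 0.068, adjusted p = 0.756), not called at either time, with an approximate 95% interval at 6 days from 0.10 to 0.37.

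Whether the DOX effect differed between 6 and 3 days was tested directly, as an interaction with no fold threshold. edgeR called 0 of 10 members, beside 17.0% of all genes, and 3 members had an unadjusted p under 0.05, as had 31.9% of all genes, so the members' share was near that of all genes. The 3 were *Fads1* (difference in log2 fold change 0.26, SE 0.091, adjusted p = 0.0544), *Acly* (0.19, SE 0.071, adjusted p = 0.0665) and *Acsl3* (0.26, SE 0.097, adjusted p = 0.0713), all higher at 6 days. For *Scd2* the difference was -0.20 (SE 0.117, adjusted p = 0.259), and for *Fasn* 0.05 (SE 0.111, adjusted p = 0.793), with an approximate 95% interval from -0.17 to 0.27. DESeq2 called *Fads1* and *Acly*. The same pair was called without replicate 1 of DMSO at 3 days, of DOX at 3 days or of DOX at 6 days, and *Fads1* alone without replicate 1 of DMSO at 6 days. When trends with length and GC were taken out of each library, *Acsl3* and *Scd2* were called instead. Of all 13234 genes, DESeq2 called 2596 for this difference, and the fit with these trends taken out called 1962. Without replicate 1 of DMSO or of DOX at 3 days, 2382 and 3787 were called. Without replicate 1 of DOX or of DMSO at 6 days, 2988 and 2728 were called.

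Time in culture alone was compared within each treatment. In DMSO, 6 days against 3 days, edgeR called 0 members and 0% of all genes, with 0 members at an unadjusted p under 0.05, and DESeq2 called 0. *Fasn* was lower in all 4 libraries of 6 days, as were 5.39% of all genes, at -0.23 (SE 0.078, adjusted p = 1.00). In DOX, edgeR called 0 members, beside 3.94% of all genes, with 0 members at an unadjusted p under 0.05, and DESeq2 called 0 as well. *Acly*, *Fads1* and *Acsl3* were higher in all 4 DOX libraries of 6 days than in those of 3 days, as were 14.5% of all genes, with log2 fold changes of 0.18 (SE 0.050), 0.20 (SE 0.064) and 0.18 (SE 0.068). This comparison uses the same DOX libraries as the comparisons with DMSO.

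Around the members, 100 genes in 9 lists of related steps were followed, of which 99 were matched in the count table and 89 were tested. Of these 89, 11 were called at 3 days (12.4%, beside 12.5% of all tested genes), 1 of them higher, and 20 at 6 days (22.5%, beside 21.6%), 8 of them higher, so that the shares called were near those of all genes at both times. The median log2 fold changes were 0.01 and 0.04. The count depended on the tool, since DESeq2 called 6 at 3 days and 10 at 6 days. Of all 13234 tested genes DESeq2 called 1019 and 1962, where edgeR called 1658 and 2856. Genes named by rule beyond the members were chosen partly for a call at 6 days or for likeness to *Fasn* or *Scd1*. Their calls therefore do not measure how secure the calls of the lists are. Of their 39 calls at 3 and 6 days, 13 held under every alternative and every left-out library. Within the lists these were *Idh1* and *Acsbg1* at both times, *Acsl4* at 3 days, and *Insig1* and *Cyb5r3* at 6 days. Outside the lists they were *Pdxk*, *Man2a1* and *Castor2* at both times, chosen for likeness to *Fasn*. Each of the other calls was lost under at least 1 alternative or left-out library. Lists were described by counts and medians and were not tested as sets. The counts of each list below stand beside the same shares of all tested genes. Of these, 7.22% were called lower and 5.30% higher at 3 days, and 11.6% and 10.0% at 6 days. DESeq2 counts of a list stand beside the DESeq2 calls of all genes given above.

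**Figure D4:**
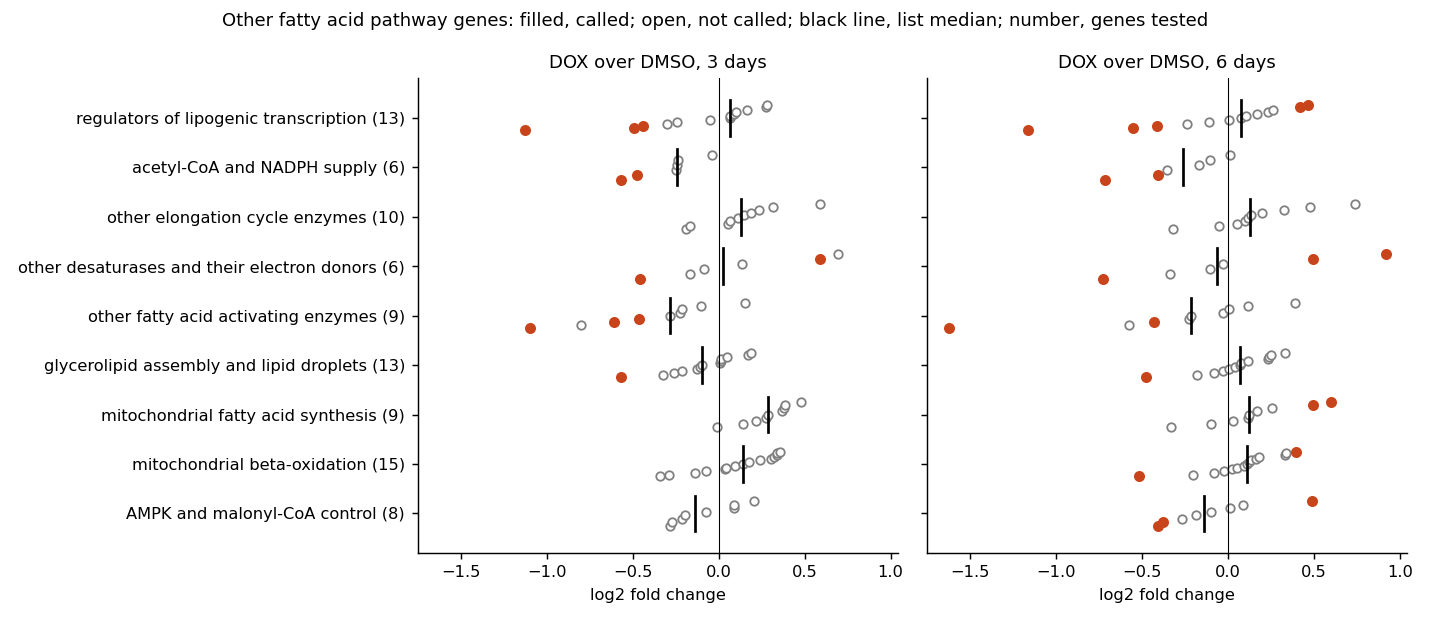
Log2 fold change (horizontal axes) of each tested gene of 9 lists at 3 and 6 days, filled where called, with the list median as a black line. Called genes lie on both sides of 0 at 6 days, and the called points farthest to the left are *Acsbg1* and *Mlxipl*. *Mlxipl* was tested only through the DMSO libraries, where it was high, and its calls are no support for a difference.

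Regulators of lipogenic transcription had 13 tested genes, of which 3 were called at 3 days, all lower, and 5 at 6 days, of which 2 were higher. Of all tested genes 12.5% and 21.6% were called, and the median log2 fold change of the list was 0.07 at both times. DESeq2 called 0 of these regulators at 3 days and 3 at 6 days. *Srebf1*, which encodes the SREBP most tied to fatty acid genes, had 118, 113, 127 and 129 CPM in DMSO and 122, 87.5, 99.6 and 85.4 CPM in DOX at 3 days, and 129, 108, 109 and 100.1 CPM against 102, 113, 116 and 117 CPM at 6 days. The groups overlapped at both times. Its log2 fold change was -0.30 (SE 0.095, adjusted p = 0.479) at 3 days, where it was called without DOX replicate 1, and 0.01 (SE 0.094, adjusted p = 1.00) at 6 days. *Srebf2*, better known for sterol genes, fell at 3 days by 0.44 on the log2 scale (SE 0.074, adjusted p = 0.0263), a call that DESeq2 did not make and that was lost when DMSO replicate 3 or DOX replicate 2, 3 or 4 was left out, and was at -0.24 (SE 0.074, adjusted p = 0.726) at 6 days. *Insig1*, itself a classic SREBP target that retains SREBP in the endoplasmic reticulum, fell at both times. It had 60.1 to 73.3 CPM in DMSO and 43.9 to 51.6 CPM in DOX at 3 days, and 61.5 to 74.4 CPM against 40.7 to 51.8 CPM at 6 days, without overlap. The log2 fold change was -0.49 (SE 0.082, adjusted p = 0.0128), lost with DESeq2 or without DMSO replicate 3, and -0.55 (SE 0.081, adjusted p = 0.00150), which was called under every alternative run.

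The other regulators were mixed. *Mlxipl*, which encodes the glucose-responsive factor ChREBP, had means of 1.27 CPM in DMSO and 0.572 CPM in DOX at 3 days, and 1.30 and 0.573 CPM at 6 days. It reached 1 CPM in 8 of 8 DMSO and 0 of 8 DOX libraries and so was tested only through the group where it was high, and its 2 calls, counted above, are no support for a difference. *Scap*, the SREBP escort, rose at 6 days by 0.42 (SE 0.070, adjusted p = 0.0234) after 0.10 (SE 0.071, adjusted p = 1.00) at 3 days. *Insig2* fell at 6 days by 0.41 (SE 0.058, adjusted p = 0.0116) after -0.05 (SE 0.058, adjusted p = 1.00). DESeq2 called neither *Scap* nor *Insig2* at 6 days. *Mbtps2*, a protease that frees the active part of SREBP, rose at 6 days by 0.46 (SE 0.061, adjusted p = 0.00273). *Mbtps1*, *Mlx*, *Nr1h2*, *Usf1*, *Usf2* and *Mid1ip1* were not called at either time, with log2 fold changes between -0.24 and 0.28.

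**Figure D5:**
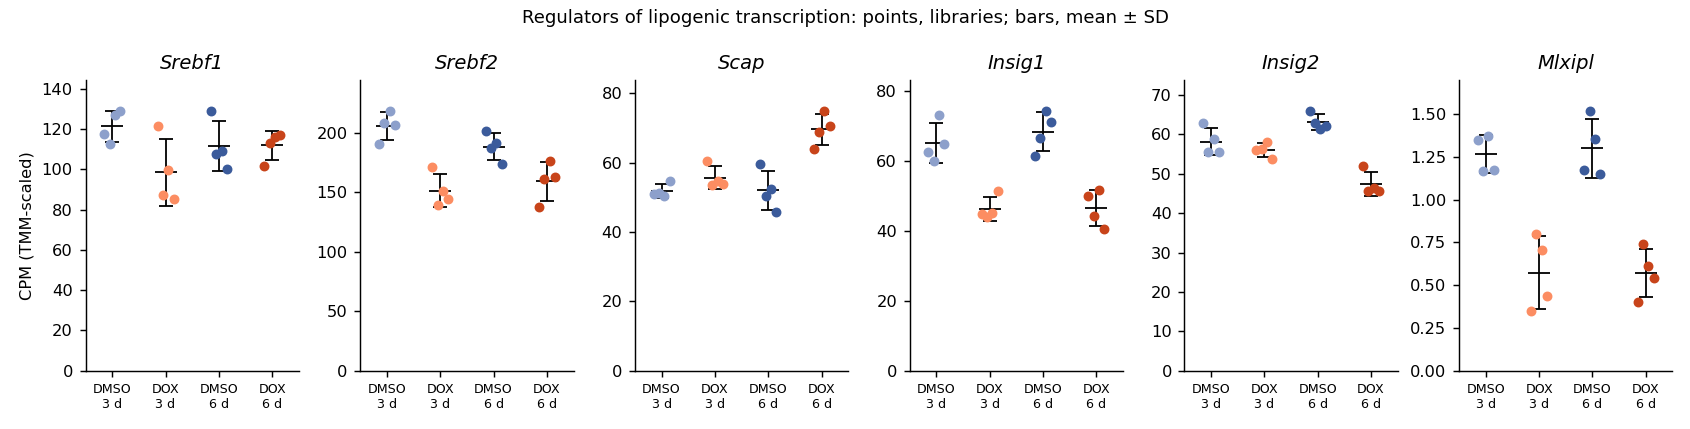
CPM of 6 regulators (vertical axes, TMM-scaled, starting at 0) in the libraries of the 4 groups, with points for libraries and bars for the mean and SD (n = 4). *Insig1* is lower in DOX at both times, *Insig2* is lower and *Scap* higher at 6 days, and *Srebf1* overlaps between treatments. *Mlxipl* was tested only through the DMSO libraries, where it was high, so its lower DOX values are no support for a difference.

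Suppliers of acetyl-CoA and NADPH had 2 of 6 tested called lower at each time and 0 higher. Of all tested genes 7.22% and 11.6% were called lower, and the list medians were -0.25 and -0.26. *Idh1*, the cytosolic isocitrate dehydrogenase, fell from 35.7 to 24.1 CPM at 3 days (log2 fold change -0.57, SE 0.085, adjusted p = 0.00284) and from 38.1 to 23.1 CPM at 6 days (-0.72, SE 0.085, adjusted p = 3.03e-05). *Me1*, the cytosolic malic enzyme, fell at 6 days by 0.41 (SE 0.058, adjusted p = 0.0129). The second call at 3 days was *Pgd* of the pentose phosphate pathway (-0.47, SE 0.056, adjusted p = 0.00192), named after its values were seen.

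Among 6 other desaturases and electron donors, *Cyb5r3*, the reductase that passes electrons to desaturases through cytochrome b5, fell on the log2 scale by 0.46 (SE 0.056, adjusted p = 0.00345) after 3 days and by 0.73 (SE 0.056, adjusted p = 1.16e-07) after 6 days. *Fads6*, a further member of the desaturase family that was barely abundant enough for testing, had means of 0.598 CPM in DMSO and 1.15 CPM in DOX at 6 days. It reached 1 CPM in 0 of 8 DMSO and 5 of 8 DOX libraries, so its call at 6 days is likewise no support for a difference. *Fads3*, named after its values were seen, rose at both times, by 0.59 (SE 0.057, adjusted p = 3.28e-05) and by 0.49 (SE 0.056, adjusted p = 0.000459). The limma fit on log2(TPM + 1) called 0 pathway genes higher at either time, and that on log2(TPM + 0.1) called 0 higher at 3 days. In those fits the rise of *Fads3* was therefore not called. *Fads3* belongs to the same gene cluster as *Fads1* and *Fads2*. The remaining tested genes of the list were not called, and the list medians were 0.02 and -0.07. Of 10 other elongation cycle genes tested, edgeR, DESeq2 and both limma fits called 0 at either time, with 1 gene at 3 days and 2 at 6 days at an unadjusted p under 0.05 by edgeR and a median of 0.13 at both.

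Other fatty acid activating enzymes had 3 of 9 tested called lower at 3 days and 2 at 6 days, and 0 higher. Of all tested genes 7.22% and 11.6% were called lower, and the list medians were -0.28 and -0.21. *Acsbg1*, a very long chain acyl-CoA synthetase, fell from 12.5 to 5.84 CPM (log2 fold change -1.10, SE 0.112, adjusted p = 2.96e-06) and from 13.8 to 4.48 CPM (-1.63, SE 0.114, adjusted p = 1.59e-09), more than any of the 10 members. *Acsl4*, which prefers arachidonate, fell by 0.61 (SE 0.090, adjusted p = 0.00157) after 3 days and by 0.43 (SE 0.090, adjusted p = 0.0481) at 6 days, the latter lost under most alternatives. The third call at 3 days was *Slc27a4*, a fatty acid transport protein, at -0.46 (SE 0.086, adjusted p = 0.0320), named after its values were seen.

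Of 13 genes of glycerolipid assembly and lipid droplets, only *Dgat2*, which makes triacylglycerol, was called, and the list medians were -0.10 and 0.07. It fell by 0.57 (SE 0.112, adjusted p = 0.0145) and by 0.48 (SE 0.111, adjusted p = 0.0422), and DESeq2 called it at neither time. Mitochondrial fatty acid synthesis, a separate route that makes lipoate precursors, had 9 tested genes, with medians of 0.29 and 0.12. At 3 days edgeR, DESeq2 and limma called 0 of them, with 2 at an unadjusted p under 0.05 by edgeR, and at 6 days edgeR called 2 higher. The called genes were *Hsd17b8* (0.60, SE 0.098, adjusted p = 0.00219) and *Mecr* (0.49, SE 0.091, adjusted p = 0.0135). At 6 days DESeq2 called 1 gene of this list, limma on log2(TPM + 1) 0 and limma on log2(TPM + 0.1) 1. Of 15 genes of mitochondrial beta-oxidation, edgeR and DESeq2 called 0 at 3 days, where 3 had an unadjusted p under 0.05 by edgeR and limma on log2(TPM + 0.1) called 1. The medians were 0.14 and 0.11. At 6 days *Acadm*, the medium chain dehydrogenase, fell by 0.52 (SE 0.072, adjusted p = 0.00159) while *Eci2*, an enoyl-CoA isomerase, rose by 0.40 (SE 0.058, adjusted p = 0.0224). DESeq2 called 1 gene of this list at 6 days, and both limma fits called 0. Of 8 genes of AMPK and malonyl-CoA control, edgeR called 0 at 3 days, with 0 at an unadjusted p under 0.05, DESeq2 called 0 and limma on log2(TPM + 0.1) called 1. The medians were -0.14 at both times. At 6 days *Mlycd*, the malonyl-CoA decarboxylase, rose by 0.49 (SE 0.093, adjusted p = 0.0174), and the AMPK subunit genes *Prkab1* (-0.41, SE 0.051, adjusted p = 0.00638) and *Prkaa1* (-0.38, SE 0.061, adjusted p = 0.0432, named after its values were seen) fell. Against these 3 calls, DESeq2 called 1 gene of this list at 6 days, limma on log2(TPM + 1) 0 and limma on log2(TPM + 0.1) 1.

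The genes whose levels followed *Fasn* most closely were ranked by Pearson's r of log2 CPM over the 16 libraries, which pools the 4 groups, so that differences between groups enter r. They were *Rbm14* (r = 0.987), *Pdxk* (0.982), *Man2a1* (0.981), *Castor2* (0.981) and *Svil* (0.979). All 5 were called lower at both times, from -1.01 for *Castor2* to -0.38 for *Svil* at 6 days on the log2 scale. Since they were picked for following *Fasn*, which fell, these calls follow from the choice and are no separate support. Genes close to *Scd1* by the same measure included *Lbr* (0.916), *Myo5c* (0.907), *Gm47331* (0.900) and *Wdr76* (0.883). The values of r are descriptions without a test. Of the 36 genes chosen by rule beyond the members, 19 overlap another annotated gene, among them *Srebf1*, *Srebf2*, *Scap*, *Insig2*, *Mlxipl* and *Cyb5r3*.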

How the data were processed

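RNA-Seq of 16 mIMCD3 libraries in 4 groups was analysed from 2 gene tables. Per the labels and the study's methods, the authors aligned read pairs to GRCm38.p6 with STAR and quantified transcripts with salmon. The deposited estimated counts are not normalized, and 20.1% of them are not whole. The deposited TPM values, also by the authors, divide by transcript length. Groups came from the labels, and 0 columns of samples were left unmapped.

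Estimated counts were rounded. Genes reaching 1 CPM in 4 or more libraries were tested, and 1 robust quasi-likelihood model with TMM scaling and 1 mean for each group was fitted to all 16 libraries with edgeR 4.0.16 in R 4.3.3. DOX was compared with DMSO, and 6 with 3 days, by glmTreat with a fold threshold of 1.2. The difference between DOX effects was tested by glmQLFTest. Tests were two-sided, adjusted by Benjamini-Hochberg over 13234 genes, with a limit of 0.05. SE is the log2 fold change divided by the square root of F, and approximate 95% intervals are 1.96 SE on each side. TPM were used for levels and ratios, without a test.

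Genes named are the members, all tested regulators, in each other list the 2 called genes with the largest change at 6 days, and the 5 genes most like *Fasn* and *Scd1*. Fads3, Pgd, Slc27a4 and Prkaa1 were added, and 1 gene that the rule chose is not reported here. Members and lists were chosen with earlier results of these data known.

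Alternatives were RLE normalization, DESeq2 1.42.0, limma 3.58.1 on log2(TPM + 1) and log2(TPM + 0.1), another fold threshold, 2 other filters, no robust estimation, a replicate block, offsets for effective length or for length and GC content, the latter also with the block, only the 8 libraries of a comparison, and leaving out each library. The code was tested on simulated counts with known changes.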

Additional observations from a re-analysis of the deposited data

Results flagged for a closer look

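In 80 groups of 4 libraries, 10 genes in 4 groups on CPM and on TPM, 1 library lay far from the other 3 in 3 groups, where chance gives about 1 in 20. *Acly* in DOX at 6 days was lowest in replicate 1, at 174.3 CPM against 189 to 192 CPM. *Acacb* in DMSO at 6 days was highest in replicate 1, at 0.983 TPM against 0.532 to 0.552 TPM. *Fads1* in DOX at 3 days was highest in replicate 1, at 56.91 TPM against 44.9 to 45.7 TPM.

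The DOX effect differed between 6 and 3 days, by edgeR's test of the interaction, for 4 of the 36 genes chosen by rule beyond the members (11.1%, beside 17.0% of all genes), of which some were chosen for their change at 6 days. The difference in log2 fold change was 0.32 for *Scap* (SE 0.0998, adjusted p = 0.0332), -0.36 for *Insig2* (SE 0.082, adjusted p = 0.00622), -0.27 for *Cyb5r3* (SE 0.079, adjusted p = 0.0217) and -0.53 for *Acsbg1* (SE 0.160, adjusted p = 0.0282).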

How the results depend on the processing

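Under the alternatives and left-out libraries, 0 values of members or other named genes reversed a call. Over alternatives, 614 of 640 values of single members kept their direction or stayed uncalled, on the same side of the threshold, 5 lost a call and 21 gained one. With 1 library left out these were 788 of 800, 4 and 8. Signs changed 34 and 21 times, in values called neither way. Without a fold threshold, 6 members were called at 3 days, 7 at 6 days (*Fads1* and *Acsl3* higher, 5 lower), and 4 for 6 against 3 days in DOX. At this setting 5982, 6702 and 4000 of all 13234 tested genes were called in the same 3 comparisons. Of the pathway genes, 11 at 3 days became 6 with DESeq2, 7 with limma on log2(TPM + 1) and 45 without a fold threshold. The 20 at 6 days became 10 with DESeq2, 5 and 8 with limma on log2(TPM + 1) and log2(TPM + 0.1), 44 without a fold threshold, 13 without a filter on low counts and 11 with the offset for effective length. Of all 13234 tested genes, DESeq2 called 1019 at 3 days and 1962 at 6 days, and the fit with this offset called 2392 at 6 days. The 0 members whose DOX effect differed between times became 2 with DESeq2, 1 without the filter and 2 with the length and GC offset. These settings called 2596 of 13234, 2237 of 34114 and 1962 of 13234 tested genes. Leaving out 1 library gave 0 to 2 there, 2 to 4 called members at 3 days, 2 to 3 at 6 days, 8 to 15 pathway genes at 3 days and 15 to 20 at 6 days. The causes of these differences were not tested.

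With replicate number as a block, the same 3 members were called at each time and 0 for the difference between times, 2 with the length and GC offset added, and 10 and 17 pathway genes. The numbers were not taken to pair libraries, since deviations of same-numbered libraries had a mean r of -0.0955 at 3 days and -0.121 at 6 days and only 4 of 16 libraries correlated best with their own number. On log2(TPM + 1) the median of all genes shifted to -0.15 at 3 days and -0.05 at 6 days, and on log2(TPM + 0.1) to -0.18 and -0.06, so that TPM changes are relative to these shifts. Over all genes, calls were 702 higher and 956 lower at 3 days and 1326 and 1530 at 6 days, against 85 and 616, and 376 and 931, on log2(TPM + 1), 104 and 805, and 448 and 1079, on log2(TPM + 0.1), and 772 and 774, and 1601 and 1525, with the length and GC offset. Without the filter, 6 genes were called for 6 against 3 days in DMSO, and 62 without a fold threshold. Counts of 69 to 119 in a library limit what can be seen for *Acacb*.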
